A study of Danio rerio with 6 samples.

Results

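Potassium channel genes were taken as all genes of the deposited table whose name starts with kcn, a rule that uses the name alone and no measured value. It gave 59 genes of 14781, and 44 of these were tested, those whose normalized read count reached 10 in 3 or more of the 6 libraries. RNA was sequenced from eyes of zebrafish larvae, 5 days after fertilization, in 3 larvae homozygous for the stl888 allele of samd7 (samd7-/-) and 3 wild-type larvae (WT). All came from crosses between samd7 heterozygotes, and the eyes of 1 larva made 1 library, so the spread between libraries joins differences between animals with those of dissection and library preparation. The labels do not describe the lesion, and samd7 encodes a Polycomb group protein of photoreceptors.

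Potassium channels let potassium leave or enter a cell and thereby set its resting voltage, end its electrical signals and tune how fast it fires. Voltage-gated (Kv) channels open on depolarization, inward rectifiers hold the resting voltage, channels with a pair of pore domains carry the leak, and calcium-activated channels couple firing to calcium. Further subunits form no pore of their own and change the gating or the transport of those that do. In vertebrate photoreceptors a voltage-gated channel that contains the Kv8.2 subunit, the product of KCNV2, shapes the response to light, and in mammals the Kir7.1 channel, the product of KCNJ13, works in the pigment epithelium. The genes kcnv2a, kcnj10a and kcnj10b are not analysed here.

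The libraries held between 23185755 and 26672265 reads assigned to genes. The samd7 transcript was present at 4691, 4070 and 4479 normalized counts in samd7-/- larvae and at 1813, 1587 and 1931 in WT larvae, a log2 fold change of 1.31 with an adjusted p = 0.0049, which does not check the labels without knowledge of the lesion. WT 1 stood apart from the other libraries: it was the lowest library for 28.3% and the highest for 27.1% of all 11959 tested genes, where each other library was lowest for 11.8 to 16.5%. The summed counts of rod, cone, bipolar, amacrine and lens markers were high in every library. Single markers of these lists were not all abundant. The cone marker opn1mw1 was nearly absent in samd7-/- larvae, and the amacrine marker slc18a3b was nearly absent in both genotypes. Of the kcn genes, 3 lie on the chromosome of samd7 in RefSeq's gene table (assembly GRCz12tu): kcnn1a, kcnh2a and kcnmb2.

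No potassium channel gene passed the test between the genotypes. With limma, 0 of 44 had an adjusted p under 0.05 in either direction, where 36 of all 11959 tested genes did (0.301%), 5 higher and 31 lower in samd7-/- (0.0418% and 0.259%). The smallest adjusted p among the kcn genes was 0.637, for kcnd3. edgeR and DESeq2 on the recovered reads also called 0 kcn genes, where they called 0.284% and 0.708% of all genes, and their smallest adjusted p-values for kcn genes were 0.547 (kcnd3) and 0.278 (kcng4a). At an unadjusted p under 0.05 with limma, 2 kcn genes were higher in samd7-/-, kcnd3 and kcnh1a, and 1 was lower, kcng4a, shares of 4.55% and 2.27% beside 3.07% and 3.25% of all tested genes. edgeR and DESeq2 each had 1 gene higher (kcnd3) and 1 lower (kcng4a) at that level, beside 6.41% and 6.18% of all genes in either direction. Counts in the text are normalized read counts unless reads are named, means stand with their SD (n = 3 larvae in each genotype), and a log2 fold change sets samd7-/- over WT after 1 is added to each count.

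Most fold changes were small and positive. Of the 44 tested kcn genes, 41 had a positive log2 fold change (93.2%) and 3 a negative one, where 50.1% of all tested genes were positive. Their median log2 fold change was 0.34, beside 0.00082 over all tested genes, and the middle of their distribution ran from 0.18 to 0.45 (quartiles), beside −0.16 to 0.18. Among the 23 kcn genes with a mean of at least 50 the median was 0.27, and 21 were positive. These are descriptions of the genes that passed the filter, 0 of which reached 10 in libraries of 1 genotype alone. kcnh1a and kcnk1b reached 10 in every samd7-/- larva but, among WT larvae, in WT 3 only, so the samd7-/- larvae sufficed for them to pass. Without the filter, 47 of 57 kcn genes with any reads were positive (82.5%, beside 50.2% of all genes with reads).

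**Figure D1:**
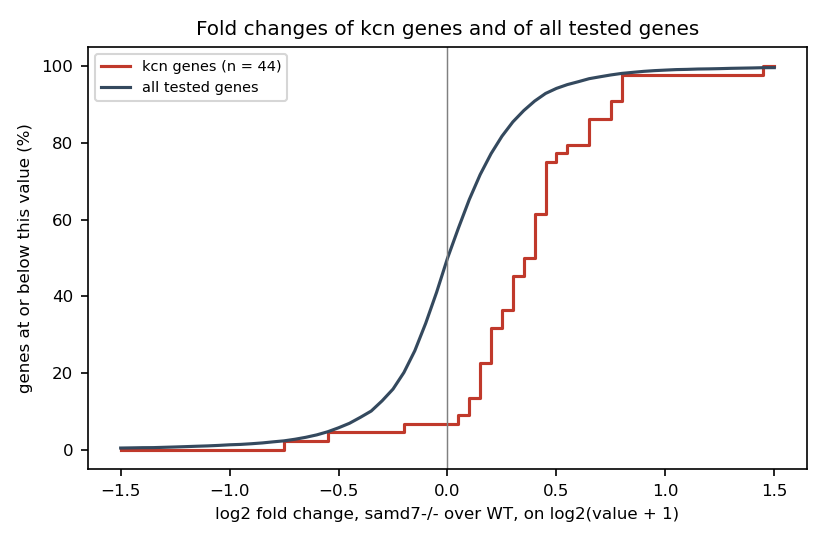
Share of genes (vertical axis, percent) with a log2 fold change, samd7-/- over WT, at or below the value on the horizontal axis, for the 44 tested kcn genes and for all 11959 tested genes. The kcn curve lies to the right of the other around 0, with a median of 0.34 beside 0.00082.

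The median fold change depended most on WT 1, and the share of positive genes fell most without WT 1 or WT 2. WT 1 was the lowest library for 24 of the 44 kcn genes (54.5%), beside 28.3% of all tested genes. It was the highest for 1 (2.27%), beside 27.1%. In samd7-/- larvae the median deviation of these genes from their own mean over the 6 libraries was 0.22, 0.087 and 0.17 on the log2 scale, while in WT larvae it was −0.45 for WT 1, −0.020 for WT 2 and 0.027 for WT 3. Over all tested genes it lay between 0.011 and 0.014 in every library. Without WT 1 the median log2 fold change of the 44 genes was 0.15, and 33 were positive (75%) where 50.2% of all tested genes were. Without WT 2 the median was 0.36 and 35 were positive (79.5%, beside 49.6%), and with any other library left out 85.4 to 90.5% of the kcn genes tested were positive.

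**Figure D2:**
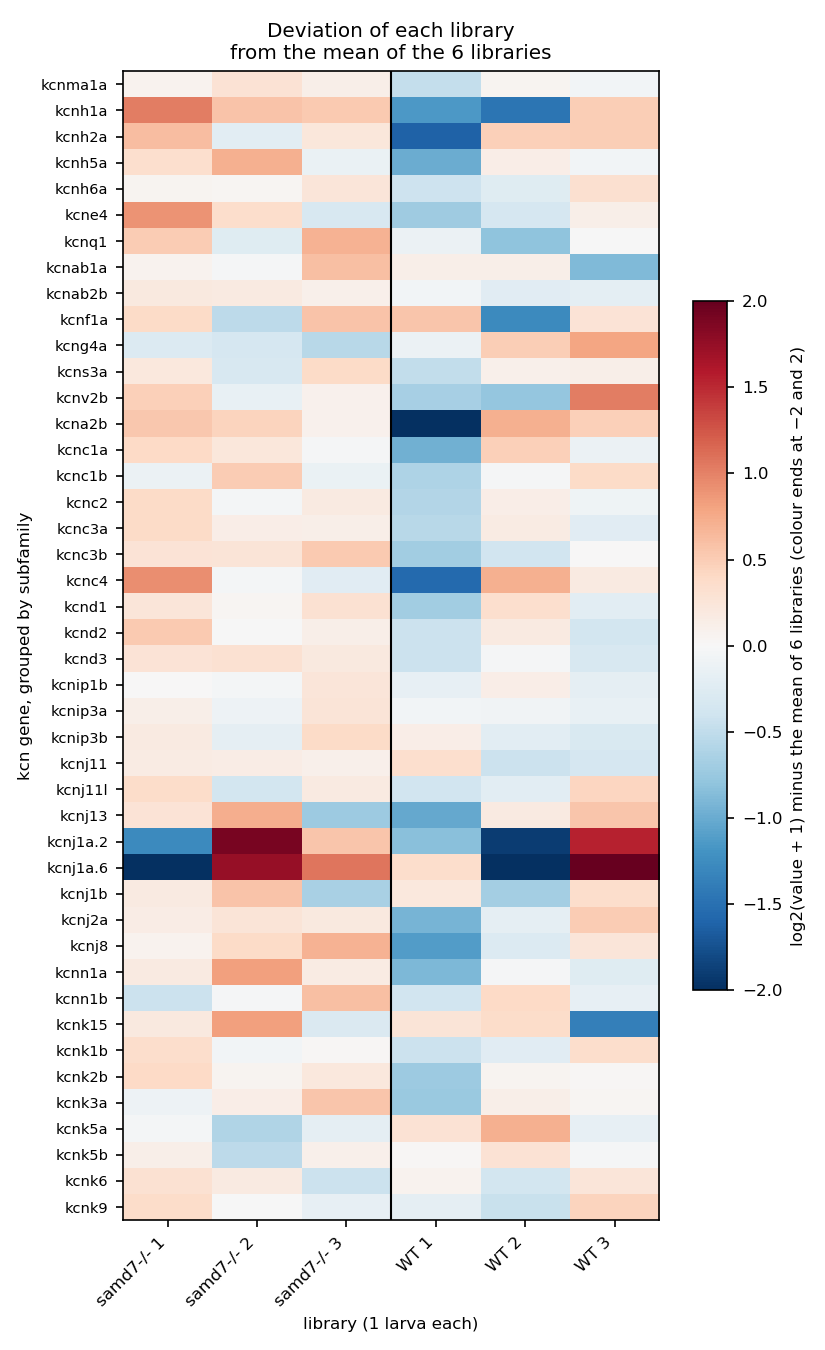
Deviation of each library (columns, 1 larva each) from the mean of the 6 libraries for each of the 44 tested kcn genes (rows), in log2(value + 1) units, with red above and blue below the mean. The WT 1 column is below the mean in 34 of 44 rows, and the kcnj1a.2 and kcnj1a.6 rows are high in samd7-/- 2 and WT 3.

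Marker genes of cell types also differed between the libraries, not all of them along with WT 1. All 18 tested lens markers had negative fold changes (median −0.53), 0 past the threshold, and their summed counts ranged from 1370910 to 2120540 in samd7-/- and from 1773800 to 3130790 in WT. The WT 1 lens sum was the lowest of WT and inside the samd7-/- range, and the lens median was −0.71 without that library. Amacrine markers were positive for 8 of 9 (median 0.27; sums of 27598.8 to 28540.3 in samd7-/- and 23419.5 to 26029.7 in WT), ganglion cell markers for 8 of 9 (median 0.24; 16825.2 to 18328.6 and 13568.2 to 16532.1) and bipolar markers for 10 of 11 (median 0.12; 48894.2 to 56236.6 and 47500.0 to 49974.6). Horizontal cell markers were positive for 3 of 7 (median −0.060; 13200.6 to 14714.1 and 13591.9 to 15577.6), with WT 1 highest. Muller glia markers were positive for 7 of 9 (median 0.13; 153381 to 188384 and 155310 to 179215). Without WT 1 the medians were 0.19 for amacrine, 0.19 for ganglion, 0.11 for bipolar, −0.061 for horizontal and 0.15 for Muller markers. WT 1 had the lowest amacrine and ganglion sums, the highest bipolar sum of WT and the highest muscle sum (107363, against 28485.5 to 74848.8 in samd7-/- and 39471.3 and 58094.8 in WT 2 and WT 3). All 11 rod markers were negative, 9 of them past the threshold. No marker of these lists was at 0 in all libraries, and the part of cell makeup in the kcn values was not tested. In whole eyes, fewer cells of a type and less RNA per cell cannot be told apart.

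The groups of samd7-/- and WT larvae did not overlap for 7 kcn genes. In 6 of 44 every samd7-/- larva was above every WT larva (13.6%, beside 6.66% of all tested genes): kcnd3, kcnma1a, kcnab2b, kcnc3b, kcnn1a and kcnh1a. In 1 of 44, kcng4a, every samd7-/- larva was below (2.27%, beside 6.39%). WT 1 was the lowest library for 4 of the 6.

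**Figure D3:**
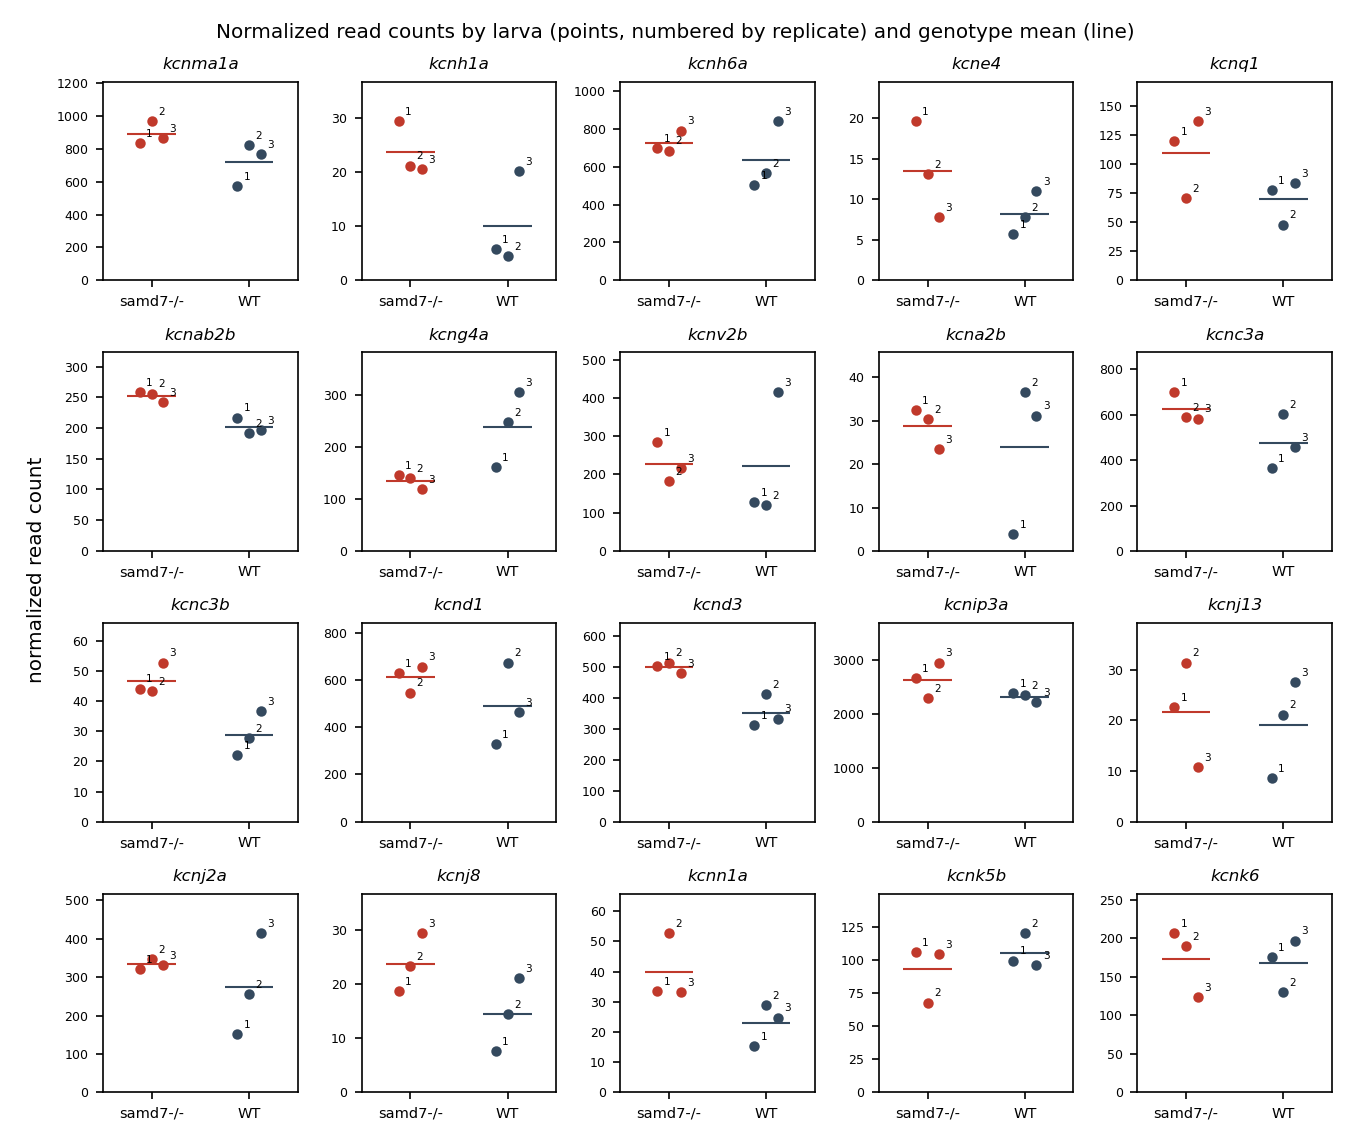
Normalized read counts (vertical axes, linear from 0) of 20 kcn genes, with 1 point per larva numbered by replicate, samd7-/- left and WT right, and a line at each mean. The genotypes separate for kcnd3, kcnma1a, kcnab2b, kcnc3b, kcnn1a, kcnh1a and, downward, kcng4a, and WT 3 is the highest library for kcnv2b, kcnj2a and kcnh6a.

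Kv4 channels carry a transient (A-type) current, and the genes of their pore subunits here are kcnd1, kcnd2 and kcnd3. kcnd3 (Kv4.3) had 503, 515 and 480.2 counts in samd7-/- larvae and 312, 413 and 334 in WT larvae. The mutant values lay within a narrow range above all WT values, with a log2 fold change of 0.51 (SE 0.15, 95% interval 0.16 to 0.86, unadjusted p = 0.0102, adjusted p = 0.637). kcnd1 (Kv4.1) had 629, 547 and 657 counts in samd7-/- and 329, 673 and 463 in WT, overlapping through WT 2 (log2 0.38, interval −0.18 to 0.94; 0.13 without WT 1 and 0.64 without WT 2). kcnd2 (Kv4.2) averaged 95.3 ± 19.1 in samd7-/- and 71.9 ± 17.6 in WT (log2 0.41, adjusted p = 0.834). All 3 fold changes were thus positive and 0 passed. Left out 1 at a time, the libraries gave kcnd3 log2 fold changes between 0.43 (without WT 1) and 0.63 (without WT 2).

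The calcium-sensing proteins that bind Kv4 channels, the KChIPs, differed less. kcnip3a, a copy of the gene for KChIP3, had more reads than any other kcn gene, 2671, 2289 and 2951 normalized counts in samd7-/- and 2380.4, 2345 and 2217 in WT. WT 1 and WT 2 fell inside the samd7-/- range, and the log2 fold change of 0.18 had an interval of −0.10 to 0.46, which leaves out a 2-fold change in either direction. The estimate was 0.096 without samd7-/- 3 and 0.28 without samd7-/- 2. The paralog kcnip3b averaged 883 ± 166 in samd7-/- and 734 ± 121 in WT (log2 0.26, interval −0.16 to 0.68), and kcnip1b averaged 848 ± 91.8 and 772 ± 98.6 (log2 0.14, interval −0.19 to 0.47). Read counts are not corrected for transcript length, so they do not rank genes by the number of transcripts.

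Kv3 channels, which open only at strong depolarization and close fast, let neurons fire at high rates. All 6 Kv3 genes of the table were tested and had positive fold changes, with a median of 0.41, and 0 passed. kcnc3a had 700, 590.5 and 583 counts in samd7-/- and 364, 602 and 459 in WT (log2 0.42, SE 0.20, adjusted p = 0.781; log2 0.24 without WT 1). Its paralog kcnc3b had 44.2, 43.5 and 52.8 counts in samd7-/- and 22.0, 27.8 and 36.7 in WT, without overlap (log2 0.71, SE 0.33, unadjusted p = 0.0612, adjusted p = 0.781). kcnc1a had 261, 231 and 194 counts in samd7-/- and 100.4, 275 and 183 in WT. WT 1 was the lowest library for all 6 Kv3 genes, down to 2.87 for kcnc4, which averaged 13.2 ± 6.49 in samd7-/- and 10.9 ± 7.51 in WT. kcnc1b and kcnc2 averaged 46.7 ± 13.0 and 85.4 ± 12.8 in samd7-/- and 42.0 ± 14.1 and 67.5 ± 16.5 in WT.

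The Kv1 family was represented by kcna2b and kcna6a. kcna2b (Kv1.2), a channel of axons, had 32.4, 30.3 and 23.5 counts in samd7-/- and 3.82, 36.7 and 31.2 in WT. Only WT 1 was low, and the log2 fold change of 0.71 (interval −1.01 to 2.44) became −0.24 without it. With all 6 libraries it was 0.27 with edgeR or DESeq2 and 0.37 with a pseudocount of 10. kcna6a had 0 reads in all 6 libraries. The beta subunits that attach to Kv1 channels inside the cell were kcnab1a and kcnab2b. kcnab2b had 259, 256 and 243 counts in samd7-/- and 217, 192 and 196 in WT, a small difference without overlap (log2 0.32, interval −0.04 to 0.68, adjusted p = 0.791). kcnab1a averaged 93.6 ± 23.3 in samd7-/- and 71.3 ± 25.2 in WT.

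The EAG and ERG channels gave the largest single estimate. kcnh1a (EAG1) had 29.5, 21.2 and 20.5 counts in samd7-/- and 5.74, 4.44 and 20.2 in WT. The mutant larvae lay above all WT larvae, but the lowest mutant and the highest WT value nearly touched, and the log2 fold change of 1.41 had an interval of 0.03 to 2.79 (unadjusted p = 0.0458, adjusted p = 0.779; edgeR unadjusted p = 0.0797). It rests on 72 reads in samd7-/- and 32 in WT. kcnh6a, the ERG channel that repolarizes the zebrafish heart, had 697, 686 and 792 counts in samd7-/- and 503, 567 and 841 in WT (log2 0.22, interval −0.23 to 0.67; 0.067 without WT 1 and 0.44 without WT 3). WT 3 was the highest of its libraries, so the genotypes overlapped. kcnh2a averaged 33.9 ± 10.0 in samd7-/- and 29.7 ± 18.2 in WT, with WT 1 at 8.60, and kcnh5a averaged 20.9 ± 6.32 and 13.7 ± 5.33. kcnh1b had 13 reads over the samd7-/- libraries and 11 over the WT libraries and was not tested.

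Modifier subunits of the kcnf, kcng, kcns and kcnv groups are silent alone and join other Kv subunits. kcng4a (Kv6.4) had 145, 139.5 and 119 counts in samd7-/- and 162, 248 and 305 in WT. It was the single kcn gene with all mutant larvae below all WT larvae, at a log2 fold change of −0.77 (SE 0.26, interval −1.36 to −0.19, unadjusted p = 0.0157, adjusted p = 0.65). The WT values were widely spread, and WT 1 lay close to the mutants. Without WT 1 the log2 fold change was −1.03 (unadjusted p = 0.00116, adjusted p = 0.197), and without WT 3 it was −0.57 (unadjusted p = 0.0621). In the authors' deposited table kcng4a has a log2 fold change of −0.82 and an adjusted p of 0.283, the smallest there of any kcn gene.

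kcnv2b, a zebrafish copy of the gene for the photoreceptor subunit Kv8.2, had 284, 183 and 216 counts in samd7-/- and 128, 119 and 416 in WT. WT 3 was the highest and the other WT larvae were the lowest of the 6, so the means of 228 ± 51.5 in samd7-/- and 221 ± 169 in WT differed by less than the spread between larvae (log2 0.27, interval −0.76 to 1.31). The interval does not leave out a 2-fold gain. edgeR and DESeq2 gave log2 fold changes of 0.037 and 0.043 for kcnv2b, and limma gave values from −0.044 (without WT 2) to 0.86 (without WT 3). In these libraries rod markers summed to between 44055.9 and 101871 in samd7-/- and between 320265 and 431127 in WT, ranges that do not overlap. Cone markers summed to between 2849090 and 3134010 in samd7-/- and between 2029770 and 3116540 in WT, but this sum hides opposite changes. Of 15 tested cone markers 10 were positive and 5 negative, with arr3b past the threshold upward and opn1mw1, opn1mw2 and arr3a downward. The largest part of the sum was opn1sw1, with means of 1579590 in samd7-/- and 1005550 in WT. The part of rods or cones in the kcnv2b values was not tested. kcns3a and kcnf1a averaged 66.5 ± 16.3 and 35.8 ± 13.0 in samd7-/- and 58.2 ± 13.2 and 31.9 ± 17.5 in WT. kcng1 and kcns3b, with 15 and 3 reads over the samd7-/- libraries and 9 and 4 over the WT libraries, were not tested.

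Among KCNQ channels and the single-pass KCNE subunits that can join them, kcnq1, listed as kcnq1.1 by RefSeq, had 119.9, 70.8 and 137 counts in samd7-/- and 77.4, 47.8 and 83.5 in WT. The lowest mutant value fell inside the WT range (log2 0.63, interval −0.14 to 1.40, adjusted p = 0.793; log2 0.38 without WT 2). kcne4, an inhibitory subunit in mammals, averaged 13.5 ± 5.93 in samd7-/- and 8.17 ± 2.66 in WT (log2 0.62, interval −0.65 to 1.89). Its log2 fold change of 0.62 was 0.35 with a pseudocount of 10. It was 0.42 without WT 1, 0.61 without WT 2 and 0.94 without samd7-/- 3. kcne4 reached 10 only in samd7-/- 1, samd7-/- 2 and WT 3, and without any 1 of these it did not pass the filter. kcnq2a had 14 reads over the samd7-/- libraries and 13 over the WT libraries.

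Calcium-activated channels comprise the large-conductance BK channel and the small-conductance SK channels. kcnma1a, which encodes the BK pore, had 834, 969 and 864 counts in samd7-/- and 572, 825 and 768 in WT. The genotypes did not overlap, but samd7-/- 1 and WT 2 lay close to each other, and the log2 fold change of 0.31 had an interval of −0.06 to 0.69 (adjusted p = 0.791) and was 0.16 without WT 1. kcnn1a, an SK1 gene on the chromosome of samd7, had 33.4, 52.58 and 33.3 counts in samd7-/- and 15.3, 28.9 and 24.8 in WT (log2 0.78, SE 0.39, unadjusted p = 0.08, adjusted p = 0.791). Its paralog kcnn1b, which lies on another chromosome, averaged 23.4 ± 8.96 in samd7-/- and 21.5 ± 6.60 in WT (log2 0.10). kcnmb2, which encodes a BK beta subunit, had 0 reads in all 6 libraries.

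**Figure D4:**
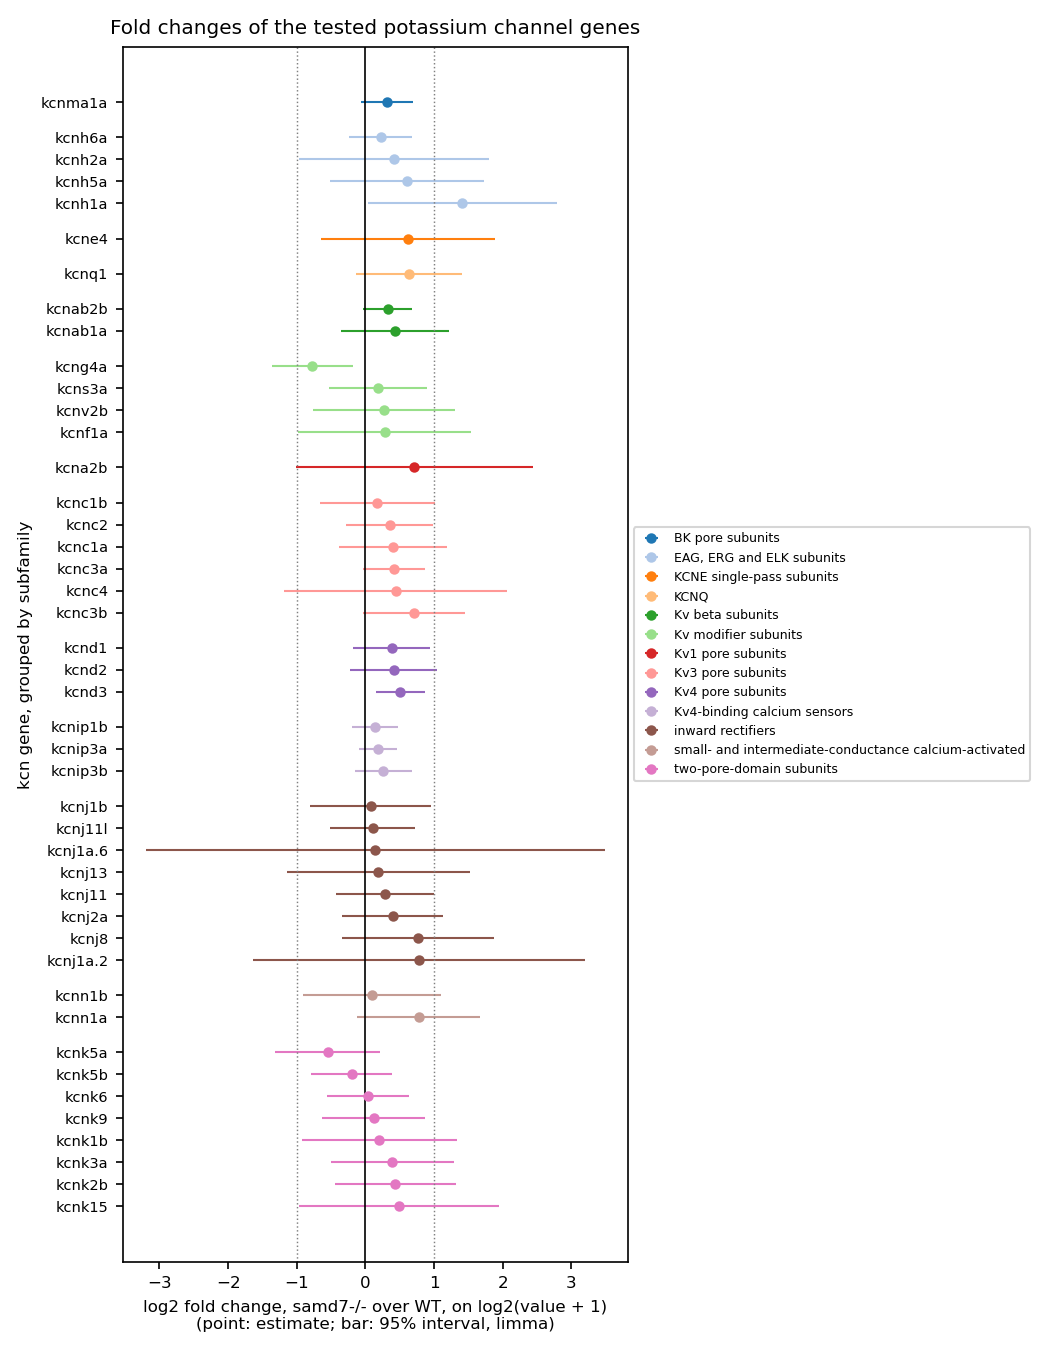
Log2 fold change (samd7-/- over WT, points) with its 95% interval (bars, limma) for each of the 44 tested kcn genes, grouped and coloured by subfamily, with dotted lines at −1 and 1. The estimates run from −0.77 (kcng4a) to 1.41 (kcnh1a), 41 of 44 intervals include 0, and 16 lie between −1 and 1.

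Inward rectifiers hold the resting voltage near the potassium equilibrium. All 8 tested genes had positive fold changes, with a median of 0.24, and 0 passed or separated the genotypes. kcnj2a (Kir2.1) had 320.5, 348 and 332 counts in samd7-/- and 152, 257 and 414 in WT. The mutants were tightly placed, with an SD of 13.8, while the WT larvae had one of 132 (log2 0.40, interval −0.34 to 1.13). The estimate was 0.032 without WT 1 and 0.75 without WT 3. kcnj13 (Kir7.1), the gene behind a stripe pattern mutant in zebrafish, had 22.6, 31.3 and 10.8 counts in samd7-/- and 8.60, 21.1 and 27.5 in WT, with the log2 fold change of 0.19 turning to −0.27 without WT 1.

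kcnj8 (Kir6.1) and kcnj11 (Kir6.2) form the pore of ATP-sensitive channels. kcnj8, in mammals a gene of mural cells of vessels, had 18.7, 23.3 and 29.3 counts in samd7-/- and 7.65, 14.4 and 21.1 in WT (log2 0.76, interval −0.34 to 1.87; 0.40 without WT 1). Mural cell markers summed to between 2368.2 and 2749.26 in samd7-/- and between 2182.73 and 2435.83 in WT, with pdgfrb at 0 in all libraries and 4 of 5 tested markers positive. Their part in the kcnj8 values was not tested. kcnj11 averaged 50.2 ± 1.16 in samd7-/- and 42.2 ± 13.2 in WT, and kcnj11l averaged 299 ± 74.0 and 279.8 ± 87.9. abcc8 and abcc9, which encode the sulfonylurea receptors that complete these channels, had log2 fold changes of 0.34 and −0.018 (adjusted p = 0.844 and 0.991).

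The 6 neighbouring kcnj1a copies and kcnj1b belong to the ROMK group, which secretes potassium in the mammalian kidney and in ionocytes of zebrafish skin. The copies together had 16, 102 and 43 reads in samd7-/- larvae 1, 2 and 3, and 22, 16 and 117 in WT larvae 1, 2 and 3. samd7-/- 2 and WT 3 were thus high together, and neither genotype stood above the other. The copies kcnj1a.2 to kcnj1a.6 were each highest in one of these 2 libraries and next highest in the other. kcnj1a.1 did not share this order, with 4, 0 and 6 reads in samd7-/- and 3, 6 and 10 in WT. kcnj1a.2, the copy with most reads, had 3.93, 43.5 and 16.6 normalized counts in samd7-/- and 5.74, 2.22 and 33.9 in WT. kcnj1b had 133, 174 and 74.3 counts in samd7-/- and 135, 72.2 and 149.5 in WT, with the same library highest in each genotype.

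**Figure D5:**
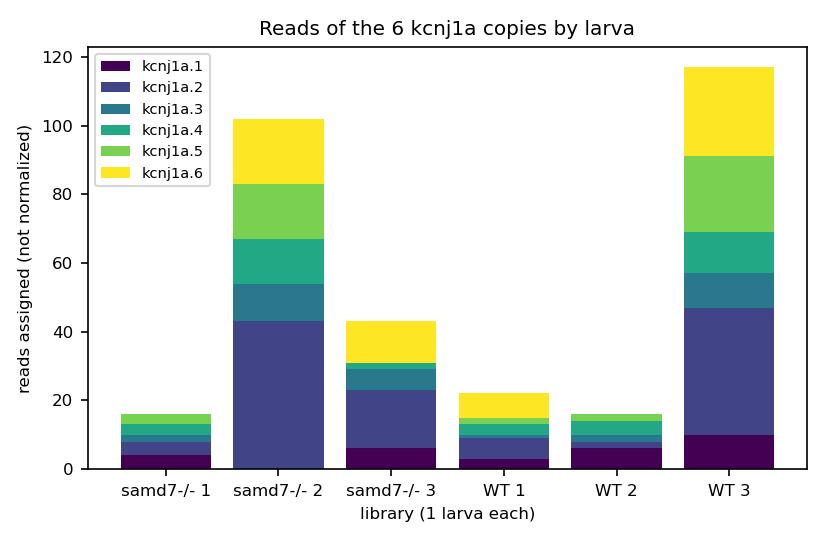
Reads assigned to each of the 6 kcnj1a copies (stacked bars, not normalized) in each larva, samd7-/- left and WT right. The total is 102 in samd7-/- 2 and 117 in WT 3, against 16 to 43 in the other libraries.

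Only kcnj1a.2 and kcnj1a.6 of these copies passed the filter, with log2 intervals of −1.632 to 3.199 and −3.195 to 3.482. The copies are alike and each overlaps a further gene in RefSeq's table, so the split of reads between them is uncertain. Summed pigment cell markers were also highest in samd7-/- 2 (216938) and WT 3 (201589), against 93344.8 and 61019.7 in the other samd7-/- larvae and 153914 and 83381.4 in the other WT larvae. Single markers did not all share this order: slc45a2 and pmelb were highest among WT larvae in WT 1 (4277 and 3800, against 3103 and 2908 in WT 3). The 8 tested pigment cell markers were all negative between the genotypes, none was at 0, and 0 passed. Summed blood markers were highest in the same larvae too, at 11422.7 in samd7-/- 2 and 9521.47 in WT 3. The sums were 5243.66 and 5328.81 in the other samd7-/- larvae and 8713.73 and 2975.85 in the other WT larvae. Of the tested blood markers 4 of 4 were positive, 0 past the threshold, and hbaa1 and hbbe3 were at 0 in all libraries. Among WT larvae hbae3 was highest in WT 1 (3167, against 2881 in WT 3). Skin ionocyte markers summed to between 11423.2 and 12154.9 in samd7-/- and between 9999.52 and 13683.6 in WT, with WT 3 highest, 2 of 6 positive and none at 0, sums made up mostly of atp6v1aa and ca2. The marker ceacam1 of that list, chosen after its values were seen, had 1.97, 54.6 and 24.4 counts in samd7-/- and 8.60, 4.44 and 137 in WT. Other markers of the list did not share that order. trpv6, foxi3a and foxi3b were highest in WT 3, but among samd7-/- larvae they were highest in samd7-/- 3 (49.9, 27.4 and 22.5). In samd7-/- 2 they had 14.2, 26.3 and 11.1 counts. The part of these cell types in the kcnj1a values was not tested.

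Two-pore-domain channels carry the leak of potassium at rest. Of 13 genes 8 were tested, 6 with positive and 2 with negative fold changes and a median of 0.16, and 0 passed. kcnk5a and kcnk5b, copies of the gene for the pH-sensitive channel TASK-2, were the negative ones. kcnk5a had 45.2, 30.3 and 41.1 counts in samd7-/- and 57.4, 76.6 and 41.3 in WT (log2 −0.55, interval −1.32 to 0.22, unadjusted p = 0.138). kcnk5b had 106, 67.7 and 104.6 counts in samd7-/- and 99.4, 120.0 and 96.3 in WT, with the low value in samd7-/- 2 alone (log2 −0.20, and 0.0090 without that library). Cornea and skin markers summed to between 311629 and 339646 in samd7-/- and between 348219 and 390357 in WT, with 2 of 14 positive and none at 0, and their part in the kcnk5 values was not tested.

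The leak channel gene with most reads, kcnk6 (TWIK-2), had 206, 190.1 and 124 counts in samd7-/- and 176, 130.0 and 197 in WT. Its log2 fold change of 0.037 (interval −0.56 to 0.63) was the estimate nearest to 0 among the tested kcn genes. kcnk2b (TREK-1) and kcnk3a (TASK-1) averaged 28.7 ± 3.59 and 34.6 ± 8.47 in samd7-/- and 21.6 ± 6.26 and 26.6 ± 8.16 in WT, with WT 1 lowest for both. kcnk9 (TASK-3) averaged 54.8 ± 10.8 in samd7-/- and 51.4 ± 17.1 in WT. kcnk15 and kcnk1b lay near the filter, at 13.9 ± 5.80 and 11.5 ± 1.95 in samd7-/- and 10.5 ± 5.94 and 10.098 ± 3.23 in WT.

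In all, 15 kcn genes did not pass the filter and had too few reads for the tests with limma and edgeR. DESeq2 was run without this filter, gave an adjusted p for 55 kcn genes and called 0. kcna6a and kcnmb2 had 0 reads, and a count of 0 allows up to 3 reads per library, a value between 2.75 and 3.33. kcnk13b had 2 reads, both in samd7-/- 2. The other 12, which are kcng1, kcnh1b, kcnk10b, kcnk13a, kcnk18, kcnk1a, kcnq2a, kcns3b, kcnj1a.1, kcnj1a.3, kcnj1a.4 and kcnj1a.5, had at most 45 reads over the 6 libraries. kcnk18 (TRESK), for example, had 22 reads over the samd7-/- libraries and 21 over the WT libraries, and kcnk1a (TWIK-1) had 22 and 22.

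The share that a copy took of its duplicated pair overlapped between the genotypes for the 6 pairs given here. kcnip3a took 74.7, 76.4 and 74.0% of the reads of the kcnip3 pair in samd7-/- larvae and 73.2, 77.3 and 77.5% in WT larvae. kcnc3a took 93.0 ± 1.19% of its pair in samd7-/- and 94.2 ± 1.50% in WT, kcnc1a took 83.0 ± 4.00% and 80.5 ± 5.43%, and kcnj11l, set against kcnj11, took 85.1 ± 3.50% and 86.1 ± 6.43%. For kcnk5b the share was 70.3 ± 1.38% in samd7-/- and 64.8 ± 4.65% in WT, and for kcnn1a it was 63.1 ± 11.4% and 51.6 ± 4.12%. The shares compare reads, which also depend on transcript length, and no test was made of them.

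Kcn genes were measured less precisely than most genes. Their median coefficient of variation was 21.7% in samd7-/- larvae and 31.4% in WT larvae, beside 12.3% and 17.6% over all tested genes. Among the 23 kcn genes with a mean of at least 50 it was 14.9% in samd7-/- and 25.2% in WT. The 95% interval lay within a 2-fold change in both directions for 16 of 44 (36.4%), beside 74.2% of all tested genes. All 16 were among the 23 with a mean of at least 50, a share of 69.6% there. For the other 28 a 2-fold difference is not left out.

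Genes that work beside potassium channels were taken from a list of 46, of which 25 are in the table and 21 were tested. None passed with limma, edgeR or DESeq2. At an unadjusted p under 0.05 limma had 4 higher and 0 lower (beside 3.07% and 3.25% of all tested genes), edgeR 1 and DESeq2 3 (beside 6.41% and 6.18%). The 4 were subunits of the sodium-potassium pump, which restores the gradient that the channels draw on. atp1a3b, in mammals a catalytic subunit of neurons, averaged 6462 ± 1093 in samd7-/- and 4719 ± 778 in WT (log2 0.45, SE 0.17, unadjusted p = 0.0275, adjusted p = 0.728). atp1a3a, atp1a1b and atp1b2b had log2 fold changes of 0.40, 0.31 and 0.29 (adjusted p = 0.779 for each). All 4 had every samd7-/- larva above every WT larva, as 6.66% of all tested genes did. The 4 were picked by small p-values from the same counts, so this separation is no further evidence of a difference. WT 1 was the lowest library for atp1a3b, atp1a3a and atp1a1b.

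The pump gene with the highest mean, atp1b1a, averaged 16143 ± 517 in samd7-/- and 17010 ± 2531 in WT (log2 −0.064). Of the 14 pump genes tested 10 were positive, with a median of 0.14, and without WT 1 this was 8 with a median of 0.054. Among 5 tested cation-chloride cotransporters 3 were positive, with a median of 0.28, and without WT 1 this was 3 with a median of 0.042. slc12a2, which brings sodium, potassium and chloride into the cell, averaged 917 ± 105 in samd7-/- and 757 ± 191 in WT (log2 0.30, adjusted p = 0.834). slc12a5b, a copy of the gene for the neuronal exporter KCC2, averaged 347 ± 29.7 in samd7-/- and 243 ± 122 in WT (log2 0.66, adjusted p = 0.809). WT 1 was the lowest library for both, at 536 and 115 counts, and for slc12a5b WT 2, at 358, lay inside the samd7-/- range.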

How the data were processed

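The members, gene lists and tests were chosen with earlier results of these data known. Per the labels' protocols, 10 ng of RNA went into a SMARTer library that does not mark strand, with 12 cycles for cDNA and 12 for the library, read as 150 bp pairs. The submitters' processing notes name build danRer10, DESeq2 1.34.0, HTSeq 0.9.1, R 4.1.3, STAR 2.7.2b and Trim Galore 0.6.1, and no annotation. The authors deposited a normalized signal for each gene and larva, in which each count had been divided by the size factor of its library. They also deposited a log2 fold change and adjusted p-values, here called the authors' deposited table. All values were whole multiples of the value of 1 read, within 0.000147 reads, so reads could be recovered; for samd7-/- 2 that value, 1.01, is too near 1 for an automatic check. The chi-square per degree of freedom between libraries was at least 39.7, which does not tell differences between animals from those of library preparation. Each library was counted as a separate larva because the eyes of 1 larva made 1 library.

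The main test was limma-trend (limma 3.58.1, R 4.3.3) on log2(value + 1), 2-sided, without covariates, for 11959 genes that reached 10 in 3 or more libraries, adjusted by Benjamini-Hochberg with 0.05 as threshold. Groups came from sample titles. Alternatives were edgeR 4.0.16 and DESeq2 1.42.0 on recovered reads, the authors' deposited table, TMM factors, quantile normalization, no filter, a minimum of 50, pseudocounts of 0.5 and 10, the replicate number as a block, and each library left out. Intervals are 95%; floors (3 reads) cover counting error only.

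Every kcn gene is named. The rule for full values took genes past the threshold, the gene with the highest mean in each subfamily, the 6 smallest p-values in each direction at a mean of at least 50 (2 negative ones existed) and genes with a known ocular role; other genes with values per larva were chosen after they were seen. RefSeq's symbols matched 57 kcn genes, and synonyms 2. Of the tested kcn genes 28 overlap another gene there, on an assembly other than the danRer10 build named for the reads. How reads shared by overlapping genes were counted is not known.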

Additional observations from a re-analysis of the deposited data

How the results depend on the processing

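The count of kcn genes past the threshold was 0 in both directions under every alternative run, and so was that of partner genes. The smallest adjusted p of any kcn gene over all alternatives was 0.197 (kcng4a without WT 1), and the largest such minimum was 0.987. The median log2 fold change of the tested kcn genes was 0.26 to 0.34 under the alternatives of scaling, filter, pseudocount and tool, and 0.15 to 0.40 with 1 library left out, the lowest without WT 1. The replicate number as a block left it at 0.34, with 33 genes called over the whole table and 0 kcn genes. Deviations of same-numbered libraries had correlations of 0.0286, 0.183 and −0.0024, beside −0.159 to 0.145 for libraries with different numbers. With deviations centred within 3 larvae per genotype, these correlations cannot decide whether the numbers pair larvae. The main test did not pair them. Of 280 values of named genes under alternatives 8 changed sign, all with 1 library left out. With 1 library left out, log2 fold changes ranged from −0.24 (WT 1 out) to 1.24 for kcna2b, from −0.27 (WT 1 out; −0.13 with samd7-/- 2 out) to 0.60 for kcnj13, from −0.044 (WT 2 out) to 0.86 for kcnv2b, from −0.31 to 0.0090 (samd7-/- 2 out) for kcnk5b, and from −0.13 to 0.26 for kcnk6, negative with WT 2, samd7-/- 1 or samd7-/- 2 out. For these the cause was not tested.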
